A study of Mus musculus with 6 samples.

Results

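The genes described here encode the proteasome, the barrel-shaped protease that degrades proteins tagged with ubiquitin, in differentiated inguinal fat cells of the mouse. Members were taken by symbol, as genes with a probe set of exactly 1 platform symbol that begins with Psma, Psmb, Psmc, Psmd, Psme, Psmf or Psmg, or is Pomp. There were 50 such genes among 18193 genes with a single-symbol probe set. After a filter on dim probe sets 48 of the 50 were tested, among 12947 genes in all. The 2 that did not pass were Psma8, an alpha subunit of the testis, and Psmb11, a beta subunit of the thymus, whose probe sets lay at or below 16.64 on every array. A further 2 members, Psmc3ip and Psme3ip1, match the naming rule without encoding subunits: Psmc3ip acts in meiotic recombination and Psme3ip1 binds the activator encoded by Psme3.

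The cells of one group were given 1 uM rosiglitazone, an activator of the nuclear receptor PPARγ, for 4 d, and were profiled on 3 arrays. The other group was control cells of the same kind, also on 3 arrays, for which the labels name no vehicle. Strain, sex, age and the number of animals or cultures are not given in the labels used here, so each p-value reflects the variation among these 6 arrays alone, and that variation may be technical. Total RNA was hybridised to Affymetrix mouse expression arrays, whose values are probe set intensities on a linear scale. Array medians lay between 44.65 and 46.81. The fat cell markers Adipoq, Fabp4, Cidec, Lipe and Pnpla2 were bright in both groups, with summed intensities of 47230 to 48100 with rosiglitazone and 46040 to 47590 in control cells. Of these 5, Cidec rose by 0.28 and Lipe fell by 0.23 on the log2 scale, as all changes given without a unit are, and the other 3 were not called.

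The proteasome has a core of stacked rings. The outer rings are made of alpha subunits, and the inner rings of beta subunits, some of which cut the substrate. A cap binds ubiquitin and uses a ring of ATPases to unfold proteins and feed them into the core. Under interferon-gamma, and constantly in many immune cells, the cutting subunits are exchanged for Psmb8, Psmb9 and Psmb10, and the activator encoded by Psme1 and Psme2 is made. This immunoproteasome yields peptides for antigen presentation. In brown fat the transcription factor Nfe2l1 is known to sustain proteasome gene expression during heat production.

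With rosiglitazone, 21 of 31 core and cap genes were called higher by modest amounts. Of the 4 immunoproteasome genes that could be tested, Psmb9 and Psmb10 were called lower, and Psmb8 and Psme1 were not called. The only probe set that names the remaining one, Psme2, was brighter with rosiglitazone but is shared with another gene. Of the 48 genes tested 26 rose and 4 fell (54.2% and 8.33%), at an adjusted p under 0.05 by limma. Among all 12947 genes tested 23.5% rose and 35.7% fell. The median log2 change of the 48 was 0.12, against −0.05 for all genes. Core subunits had 12 rises and 0 falls among 14 genes (median 0.20), and cap subunits 9 rises and 0 falls among 17 (median 0.11). Of 4 immunoproteasome genes tested 0 rose and 2 fell (median −0.23), where 35.7% of all genes fell. Of 8 assembly factors 4 rose and 1 fell (median 0.14). Most changes were small: only 2 of the 30 called genes, Psme3 and Psmb9, changed by 1.5-fold or more.

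**Figure D1:**
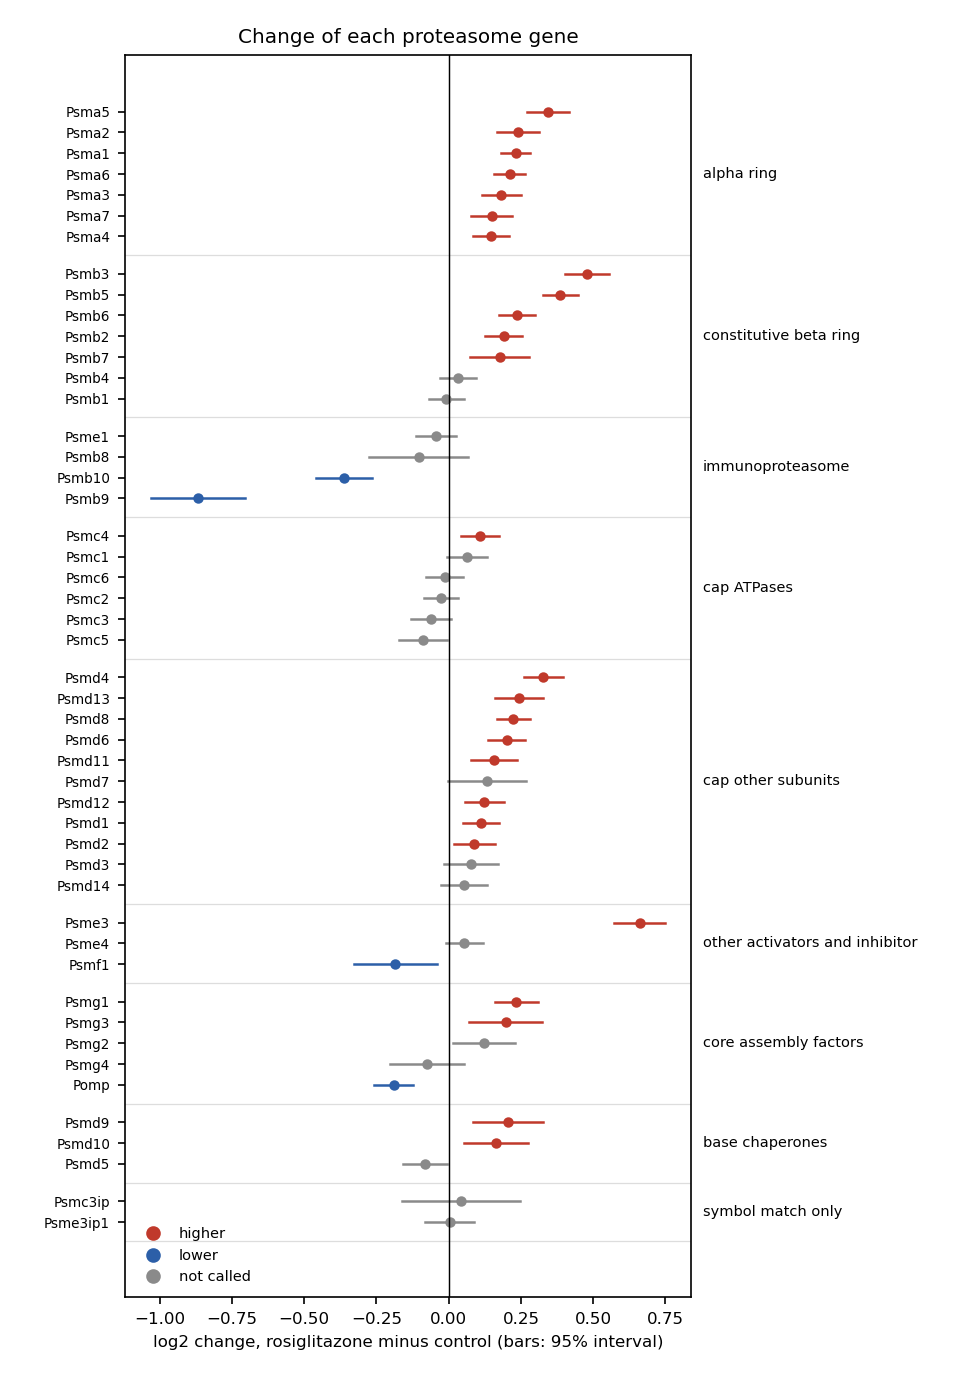
Log2 change of each of the 48 tested proteasome genes (x axis, rosiglitazone minus control, n = 3 arrays each) with its 95% interval from limma, ordered by role down the page; red genes were called higher, blue genes lower and grey genes not called. All 7 alpha ring genes sit right of 0, Psme3 sits farthest right at 0.66 and Psmb9 farthest left at −0.87.

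How the arrays are scaled moves changes of this size. Setting all arrays to 1 common median, taken over probe sets that passed the filter (174.4 to 177.4 with rosiglitazone, 190.3 to 192.3 in control cells) raised the median log2 change of all genes by 0.12, and quantile normalization raised it by 0.07. After the common-median step, called median centring below, 37 of the 48 genes rose and 2 fell, where 35.1% and 25.3% of all genes did so. After quantile normalization 32 rose and 3 fell, where 30.4% and 29.1% of all genes did so. Centring on the median of all probe sets other than controls, an alternative chosen after seeing the data, moved the median of all genes by only 0.03. It gave 31 rises and 3 falls, where 26% and 32.6% of all genes rose and fell. Which median is used thus decides part of the count. The median of the core subunits was 0.32 after median centring, that of the cap 0.23 and that of the immunoproteasome −0.11. The order of these 3 groups was the same on each of the 4 scales. The assembly group changed rank: its median lay below that of the core on the deposited scale and above it after quantile normalization.

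**Figure D2:**
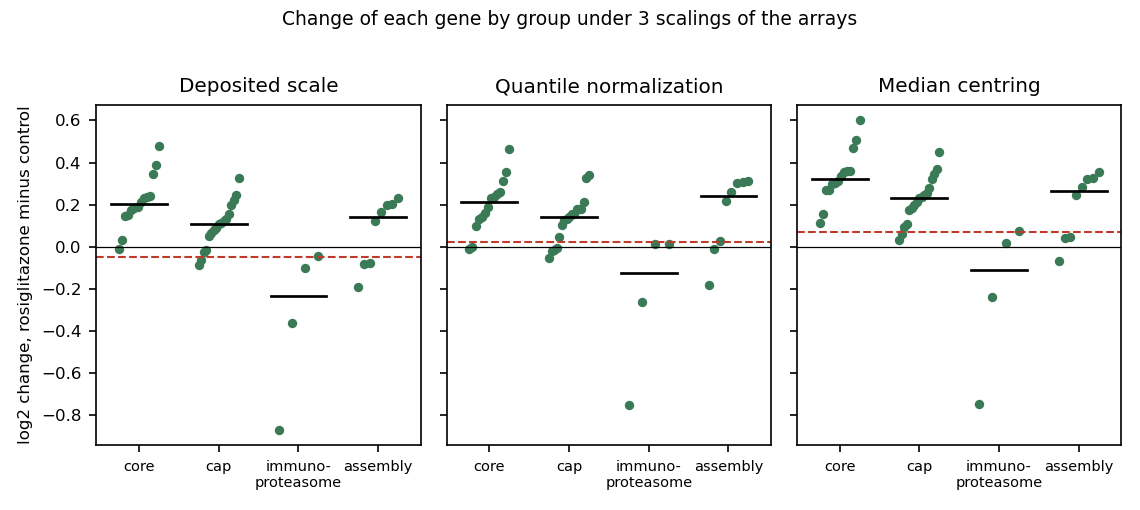
Log2 change (y axis, rosiglitazone minus control) of the genes of each group on the deposited scale, after quantile normalization and after median centring. Points are genes, black bars are group medians and the red dashed line is the median of all 12947 genes; the core median lies above that line and the immunoproteasome median below it in each panel.

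Psmb9 had the largest fall. It encodes the immunoproteasome subunit that takes the place of Psmb6 in the inner ring. Its intensity was 133.23, 128.84 and 132 on the rosiglitazone arrays, against 219.32, 249.8 and 251.8 on the control arrays. The groups did not overlap, and all 3 rosiglitazone arrays were close together. The log2 change was −0.87 (SE 0.08, adjusted p = 5.55e-08), or −0.75 after either quantile normalization or median centring.

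Psmb10, which takes the place of Psmb7, also fell. It had intensities of 625.91, 664.11 and 682.37 with rosiglitazone and 857.72, 820.7 and 855.22 in control cells, again without overlap. Its log2 change was −0.36 (SE 0.05, adjusted p = 3.74e-06), with −0.26 after quantile normalization and −0.24 after median centring, both called.

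The other 2 immunoproteasome genes were not called. Psmb8, which takes the place of Psmb5, had 174.59, 161.71 and 168.44 with rosiglitazone and 170.36, 173.49 and 199.5 in control cells. Its groups overlapped, with 1 control array above the rest (log2 change −0.10, 95% interval −0.27 to 0.07, adjusted p = 0.290). With each array left out in turn its change lay between −0.15 and −0.03, the smallest without control replicate 3. Psme1, which encodes a subunit of the interferon-inducible activator ring, had 2244.19, 2153.82 and 2184.74 with rosiglitazone and 2306.24, 2207.31 and 2280.01 in control cells. These groups overlapped as well (log2 change −0.05, 95% interval −0.11 to 0.02, adjusted p = 0.248). After median centring both had a positive change, 0.02 for Psmb8 and 0.08 for Psme1, and neither was called. Psme2 was not tested, because its probe set is shared with the near-identical copy Psme2b. That probe set was brighter on every rosiglitazone array than on every control array, with a ratio of means of 1.32.

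The standard counterparts Psmb5, Psmb6 and Psmb7 were each called higher. Psmb5, which encodes the chymotrypsin-like subunit, had 4894.84, 4989.87 and 4969.42 with rosiglitazone, against 3901.43, 3775.65 and 3692.12 in control cells. It rose by a log2 change of 0.39 (SE 0.03, adjusted p = 4.91e-09), without overlap. Psmb6, the caspase-like subunit gene, had 3413.48, 3375.41 and 3294.87 with rosiglitazone and 2786.66, 2900.56 and 2875.16 in control cells. Every rosiglitazone value of Psmb6 was above every control value (log2 change 0.24, SE 0.03, adjusted p = 3.65e-06). Psmb7, the trypsin-like subunit gene, had 1459.69, 1434.16 and 1306.2 against 1264.78, 1286.36 and 1165.87 in control cells. Its groups lay close together, and its log2 change of 0.18 (SE 0.05, adjusted p = 0.00487) was not called with a floor of 64, without a filter or without a variance trend (adjusted p = 0.0690, 0.0910 and 0.0558).

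**Figure D3:**
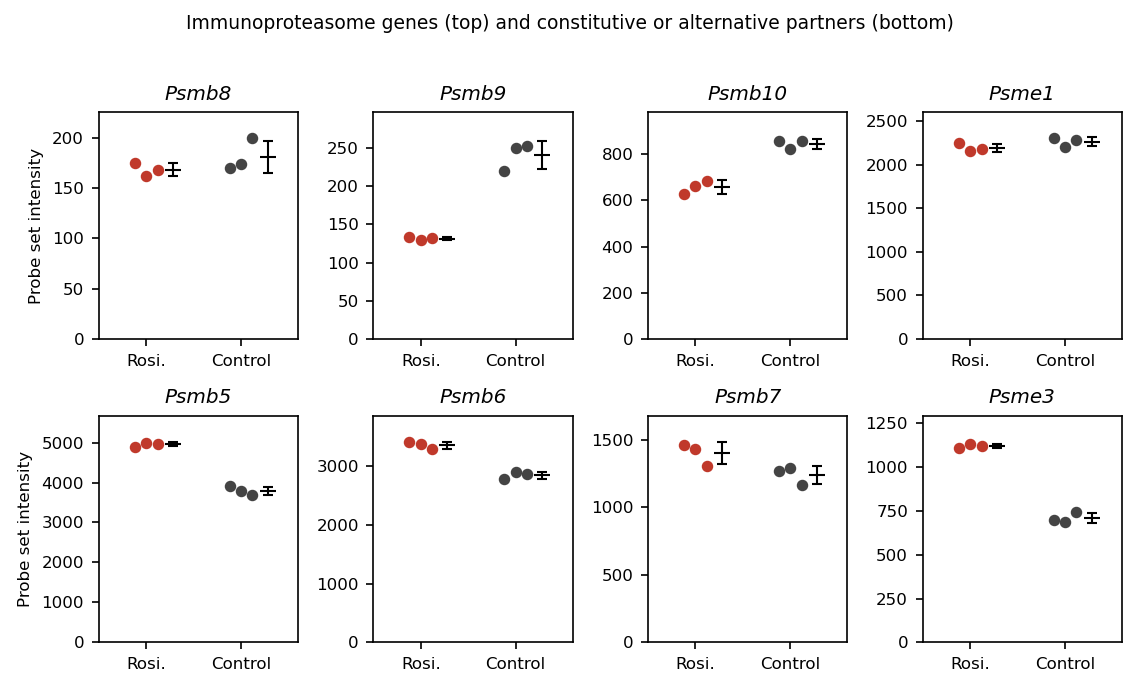
Probe set intensity (y axes, from 0) on each of the 3 rosiglitazone arrays (Rosi., red) and the 3 control arrays (black), with mean and SD beside them, for Psmb8, Psmb9, Psmb10 and Psme1 above and Psmb5, Psmb6, Psmb7 and Psme3 below. Psmb9 and Psmb10 are lower with rosiglitazone, at means of 131.4 and 657.5 against 240.3 and 844.5 in control cells, and Psmb5 and Psme3 are higher.

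The difference between an immunoproteasome gene and its partner on the same array does not depend on a factor that scales the whole array, so 4 such pairs were compared. Quantile normalization is not such a factor and can change the size of the difference. Psmb9 minus Psmb6 was −4.68 ± 0.03 with rosiglitazone and −3.57 ± 0.08 in control cells (log2, mean ± SD, n = 3 each), which differ by −1.10. Psmb8 minus Psmb5 was −4.88 ± 0.07 with rosiglitazone and −4.39 ± 0.16 in control cells, a difference of −0.49. Psmb10 minus Psmb7 was −1.09 ± 0.14 with rosiglitazone and −0.55 ± 0.10 in control cells, a difference of −0.54. The value of a pair within a group also reflects how brightly each probe set binds, so only the differences between groups are read.

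Psme1 minus Psme3 was 0.97 ± 0.04 with rosiglitazone and 1.67 ± 0.05 in control cells, a difference of −0.71. In all 4 pairs every rosiglitazone array lay below every control array. Each exact two-sided permutation p was 0.1 (0.1 after Benjamini-Hochberg adjustment over the 4 pairs), the smallest that 3 arrays against 3 can give. No pair could therefore pass a threshold of 0.05, and the differences are given as descriptions that do not say which member moved. Psme3 was set beside Psme1 with its large rise already known, so the separation of that pair follows in part from the choice.

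**Figure D4:**
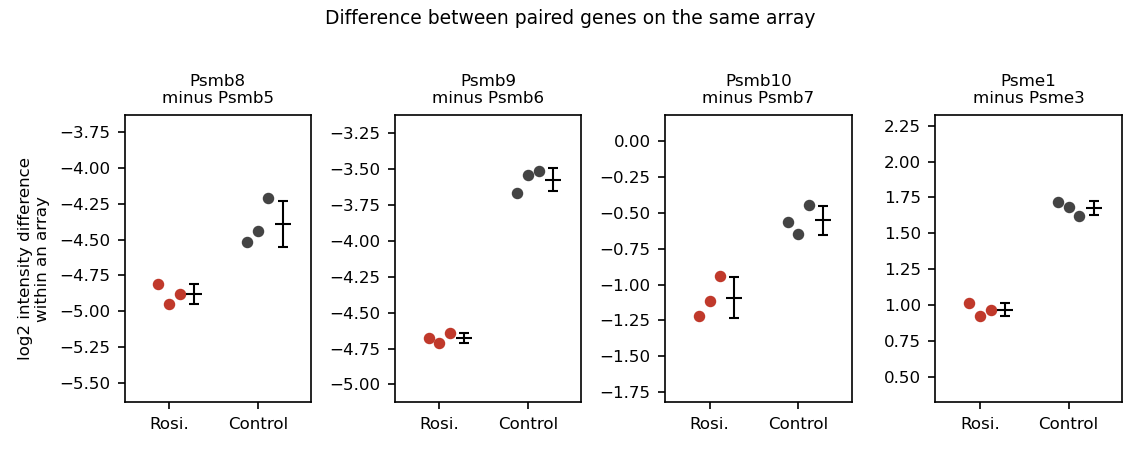
Log2 intensity difference within an array (y axes, each spanning 2 units) between the paired genes named above each panel, for the 3 rosiglitazone arrays (Rosi., red) and the 3 control arrays (black), with mean and SD beside them. In each panel all 3 rosiglitazone arrays lie below all 3 control arrays, most of all for Psmb9 minus Psmb6.

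Promoter windows of 4 genes are shown because these genes had the largest fall (Psmb9), the largest rise (Psme3) and the largest rises among core subunits (Psmb3 and Psmb5). They are RefSeq windows of build GRCm38.p6, 250 bases before to 50 after the start site, 5′ to 3′. They lie at chr17:34187281-34187580 on the minus strand for Psmb9, chr11:101315963-101316262 on the plus strand for Psme3, chr11:97703184-97703483 on the plus strand for Psmb3 and chr14:54617946-54618245 on the minus strand for Psmb5. Capitals mark matches on either strand to 4 motifs: the antioxidant response element core (TGAC, any 3 bases, then GC), which Nfe2l1 and Nfe2l2 bind, the CCAAT box CCAAT, the interferon-stimulated response element core (GAAA, any 2 bases, then GAAA) and the gamma-activated site (TTC, any 3 bases, then GAA).
Psmb9: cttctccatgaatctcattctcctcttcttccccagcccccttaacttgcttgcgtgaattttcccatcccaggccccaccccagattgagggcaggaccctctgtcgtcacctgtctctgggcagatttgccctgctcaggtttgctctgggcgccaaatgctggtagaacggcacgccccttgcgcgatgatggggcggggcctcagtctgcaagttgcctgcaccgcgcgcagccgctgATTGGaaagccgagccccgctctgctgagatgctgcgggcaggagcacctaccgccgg
Psme3: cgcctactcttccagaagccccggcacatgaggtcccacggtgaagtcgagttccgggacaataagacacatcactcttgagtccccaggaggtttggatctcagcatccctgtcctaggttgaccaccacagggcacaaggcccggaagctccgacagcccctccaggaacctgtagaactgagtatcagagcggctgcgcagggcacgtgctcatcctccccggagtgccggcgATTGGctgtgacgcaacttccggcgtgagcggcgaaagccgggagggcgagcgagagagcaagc
Psmb3: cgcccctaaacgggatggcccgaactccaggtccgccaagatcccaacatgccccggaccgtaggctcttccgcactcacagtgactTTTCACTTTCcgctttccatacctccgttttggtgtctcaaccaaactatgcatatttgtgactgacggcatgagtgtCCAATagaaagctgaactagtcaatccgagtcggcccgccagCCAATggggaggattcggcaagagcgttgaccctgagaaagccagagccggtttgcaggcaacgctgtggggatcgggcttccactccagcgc
Psmb5: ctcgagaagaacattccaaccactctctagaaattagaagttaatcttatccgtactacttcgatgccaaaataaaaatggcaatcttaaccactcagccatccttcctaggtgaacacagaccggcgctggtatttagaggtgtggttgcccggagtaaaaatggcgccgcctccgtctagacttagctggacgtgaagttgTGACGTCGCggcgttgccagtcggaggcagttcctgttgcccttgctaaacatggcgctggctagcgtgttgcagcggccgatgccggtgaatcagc

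The Psmb5 window held an antioxidant response element core that begins 47 bases before the start site. The Psmb3 window held an interferon-stimulated response element core 163 bases before the start and CCAAT boxes 85 and 43 bases before it. Psmb9 and Psme3 each held a CCAAT box, 8 and 14 bases before the start, and no printed matches overlapped. Of the 50 members 42 had a window. The antioxidant response element core was found in 4 of 25 core and cap genes, and in 12.4% of all 32851 windows. A CCAAT box was found in 10 of those 25 genes and in 37.4% of all windows. Of the 4 immunoproteasome genes 1 held an interferon-stimulated response element core (Psme1) and 1 a gamma-activated site (Psmb8), where 3.44% and 8.30% of all windows did. A match is a description of these letters only.

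All 7 tested alpha ring genes, which build the gated outer rings, rose, where 23.5% of all genes did. Psma5 led them, with 4867.31, 4861.41 and 5075.5 with rosiglitazone and 3768.18, 3783.6 and 4111.16 in control cells (log2 change 0.35, SE 0.03, adjusted p = 2.26e-07). Its groups did not overlap, and neither did those of the other 6. The share of all genes without overlap was not computed, and 6 members that were not called had no overlap either. No weight is therefore put on this count. Psma2 rose by 0.24, Psma1 by 0.23, Psma6 by 0.21, Psma3 by 0.18, Psma7 by 0.15 and Psma4, the smallest rise, by 0.15 (adjusted p = 3.68e-04). For Psma3 a second, much dimmer probe set was called lower, at a mean of 15.9 with rosiglitazone and 46.4 in control cells. The mean of both Psma3 probe sets therefore gave −0.62, the reverse of the bright set.

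In the constitutive beta ring 5 of 7 genes rose (71.4%, against 23.5% of all genes). Psmb3, a structural subunit gene, had the largest change of the core, with 4427.33, 4805.7 and 4904.76 with rosiglitazone and 3482.6, 3319.11 and 3341.9 in control cells. Its groups lay far apart (log2 change 0.48, SE 0.04, adjusted p = 7.88e-09), and its second probe set gave 0.42. Psmb2 rose by 0.19. Psmb4 and Psmb1 were not called, with log2 changes of 0.03 (95% interval −0.03 to 0.10) and −0.01 (95% interval −0.07 to 0.05), and both were called higher after median centring, at 0.15 and 0.11.

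Of the 6 ATPase genes of the cap, whose products form the unfolding ring, 1 rose and 0 fell (16.7% rose, against 23.5% of all genes). Psmc4 had 3448.93, 3292.57 and 3253.6 with rosiglitazone and 3035.25, 3080.79 and 3159.54 in control cells, so the groups did not overlap (log2 change 0.11, SE 0.03, adjusted p = 0.00742). The other 5 ATPase genes had log2 changes between −0.09 (Psmc5) and 0.06 (Psmc1), with Psmc6 nearest to 0 at −0.01 (95% interval −0.08 to 0.05). Psmc3 had −0.06 and Psmc2 had −0.03. After median centring Psmc5 and Psmc3 had 0.03 and 0.06 without a call, while Psmc1, Psmc2 and Psmc6 were called higher, at 0.19, 0.10 and 0.11. With the mean of its probe sets Psmc2 was instead called lower, at −0.13 (adjusted p = 0.0107). Psmc5 was called lower without rosiglitazone replicate 1 (−0.11, adjusted p = 0.0272) or without control replicate 2 (−0.11, adjusted p = 0.0456). The call of Psmc4 was lost without a variance trend (adjusted p = 0.0644).

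Of the 11 other cap subunit genes 8 rose (72.7%, against 23.5% of all genes), and all 11 changes were above 0. The difference from the ATPase genes was not tested. Psmd4, which encodes a ubiquitin receptor, had 3430.01, 3660.79 and 3680.12 with rosiglitazone and 2877.55, 2847.46 and 2855.19 in control cells. The control arrays were nearly level and lay below every rosiglitazone array (log2 change 0.33, SE 0.03, adjusted p = 1.79e-07). The lid subunit genes Psmd13, Psmd8 and Psmd6 rose by 0.24, 0.22 and 0.20. Psmd11, Psmd12 and Psmd1 rose by 0.16, 0.12 and 0.11, of which Psmd11 lost its call under 3 of 17 alternatives (adjusted p up to 0.160). Psmd2, a scaffold of the cap base, rose by 0.09 with overlapping groups (adjusted p = 0.0290) and lost its call under 7 of 17 alternatives, at an adjusted p up to 0.145. These included leaving out rosiglitazone replicate 2 or 3 or control replicate 2. Psmd7, Psmd3 and Psmd14 were not called, at 0.13, 0.08 and 0.05, where Psmd14 encodes the deubiquitinase of the lid. They were called higher under 5, 2 and 3 of 17 alternatives, each of them after median centring.

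Among the other activators, Psme3 had the largest rise of all members. It encodes the activator ring of the nucleus, which acts without ubiquitin. It had 1111.22, 1132.86 and 1118.61 with rosiglitazone and 699.91, 686.9 and 741.33 in control cells. The groups were far apart (1.58-fold, log2 change 0.66, SE 0.04, adjusted p = 8.80e-10). A second, dimmer Psme3 probe set gave a smaller rise of 0.23. Psme4, which encodes another nuclear activator, had 0.05 (95% interval −0.01 to 0.12) and was called after each rescaling, at 0.08 with quantile normalization, 0.18 with median centring and 0.09 with centring on all probe sets. Psmf1, which encodes a protein first described as a proteasome inhibitor, had 269.02, 239.26 and 255.3 with rosiglitazone and 278.57, 308.17 and 280.97 in control cells. Its log2 change of −0.18 (adjusted p = 0.0264) was not called under 11 of 17 alternatives, at an adjusted p up to 0.583, among them leaving out rosiglitazone replicate 2 or 3 or control replicate 2.

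The assembly factors did not move together. Psmg1 and Psmg3, which encode chaperones that order the alpha ring, rose by 0.23 and 0.20. Psmg1 had 1548.96, 1567.07 and 1510.89 with rosiglitazone and 1316.28, 1322.56 and 1295.54 in control cells, clearly apart (SE 0.03, adjusted p = 2.20e-05). Psmg2 and Psmg4, of the same chaperone family, were not called, at 0.12 (adjusted p = 0.0508) and −0.08 (adjusted p = 0.302). Psmg2 was called higher under 7 of 17 alternatives, among them median centring (0.24). Pomp, whose product helps the beta ring to mature, had 3183.62, 3352.34 and 3332.61 with rosiglitazone and 3650.13, 3737.29 and 3870.22 in control cells. Pomp thus fell while 12 of 14 core subunit genes rose (log2 change −0.19, SE 0.03, adjusted p = 7.33e-05). After median centring its change was −0.07 and not called (adjusted p = 0.120). Of the chaperones of the cap base, Psmd9 and Psmd10 rose by 0.20 and 0.16, and Psmd5 had −0.08 (adjusted p = 0.0602). Psmd5 was called lower under some alternatives, among them a floor of 64 (adjusted p = 0.0093) and no filter (adjusted p = 0.0126). After median centring it had 0.04 without a call. The call of Psmd9 was lost with the mean of its probe sets (adjusted p = 0.162), and that of Psmd10 without a filter (adjusted p = 0.0579) and without rosiglitazone replicate 1 (0.12, adjusted p = 0.0759). Psmc3ip and Psme3ip1 had 0.04 and 0.00 and were not called.

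Of 104 single-symbol probe sets of the members 85 passed the filter, and fitted by themselves 45 were called higher and 5 lower, where 22% and 32.6% of all probe sets were. Of 21 genes with at least 2 such probe sets, 15 had the same call on each. Psma3 alone had calls in opposite directions. The remaining 5, Psmd11, Psmd9, Psme4, Psmf1 and Psmg2, had called and uncalled probe sets.

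Regulators and partners of the proteasome form a list of 23 tested genes, of which 10 rose and 4 fell, with a median of 0.10. Among all genes 23.5% rose and 35.7% fell. Nfe2l1 had 2034.43, 2075.53 and 2133.6 with rosiglitazone and 1564.42, 1574.89 and 1478.56 in control cells, well apart (log2 change 0.44, SE 0.04, adjusted p = 2.49e-08). Its relative Nfe2l2, a regulator of antioxidant genes, had 2013.13, 1954.58 and 1973.93 with rosiglitazone and 2503.73, 2739.08 and 2520.19 in control cells. Nfe2l2 thus fell (log2 change −0.38, SE 0.04, adjusted p = 1.53e-07). Ipo9, an importin gene whose product carries proteasomes into the nucleus, rose by 0.53, and Akirin2, which encodes the adaptor for that import, fell by 0.22. Among the ubiquilins, which shuttle ubiquitin-tagged proteins to the cap, Ubqln2 fell by 0.60 and Ubqln1 rose by 0.31. The cap-bound deubiquitinase genes Usp14 and Uchl5 rose by 0.24 and 0.20, and the small cap subunit gene Sem1 rose by 0.16.

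In the list of antigen presentation and the interferon-gamma axis 14 of 19 tested genes fell and 1 rose, with a median of −0.38, where 35.7% of all genes fell and 23.5% rose. Gbp2, an interferon-inducible GTPase gene, had 347.02, 322.29 and 380.81 with rosiglitazone and 726.07, 667.12 and 781.78 in control cells, the largest fall of the list (log2 change −1.05, SE 0.07, adjusted p = 9.10e-10). Cxcl10, a chemokine gene, fell by 0.77 (SE 0.22, adjusted p = 0.00701), and the kinase genes Jak2 and Jak1 fell by 0.73 and 0.71. Cxcl10 was dim and its groups overlapped, at 29.45, 58.3 and 37.45 with rosiglitazone and 53.88, 76.37 and 77.1 in control cells. The rise was in the receptor subunit gene Ifngr2, by 0.23. The 4 genes not called were Ifi47 (0.11), Irgm1 (−0.05), Nlrc5 (−0.06) and Irf9 (−0.12). In the reference annotation Psmb9, Tap1, Psmb8 and Tap2 follow each other on chromosome 17. Tap1 and Tap2 encode the peptide transporter and fell by 0.49 and 0.38, while Psmb8, lying between them, was not called.

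Macrophages express the immunoproteasome. Their tested markers fell, as did Psmb9 and Psmb10, while Psmb8 and Psme1 were not called and the shared probe set of Psme2 was brighter. All 13 tested macrophage markers fell, with a median log2 change of −1.48. Of all genes 35.7% fell, and their median change was −0.05. The scavenger receptor gene Mrc1 fell by 1.80, and of the complement genes C1qa fell by 1.99, C1qb fell by 1.76 and C1qc fell by 1.76. The summed intensity of the 13 markers was 4792 to 5268 with rosiglitazone and 14080 to 15450 in control cells. None of them was at 0, and 3 further markers (Itgam, Cd163 and Aif1) were below the filter and not tested. Itgam had 17.11 to 21.01 with rosiglitazone and 30.42 to 33.07 in control cells. The groups overlapped for Cd163 (8.8 to 12.83 against 6.72 to 13.62 in control cells) and for Aif1 (17.16 to 22.46 against 16.22 to 26.07). The part of this change in the falls of Psmb9 and Psmb10 was not tested. In such bulk RNA fewer cells of a type and less RNA per cell cannot be told apart. Of 7 T, B and NK cell markers 2 were tested, and neither Cd8a nor Cd79b was called, while the T cell marker Cd3e lay at or below 3.22. Of 6 endothelial markers 1 was tested, and this gene, Tek, fell by 1.15. Pecam1, Cdh5, Kdr, Vwf and Cldn5 were below the filter, at no more than 30.32 on any array, with overlapping groups. Of 4 epithelial markers 2 were tested, Krt8 and Krt19, and neither was called.

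**Figure D5:**
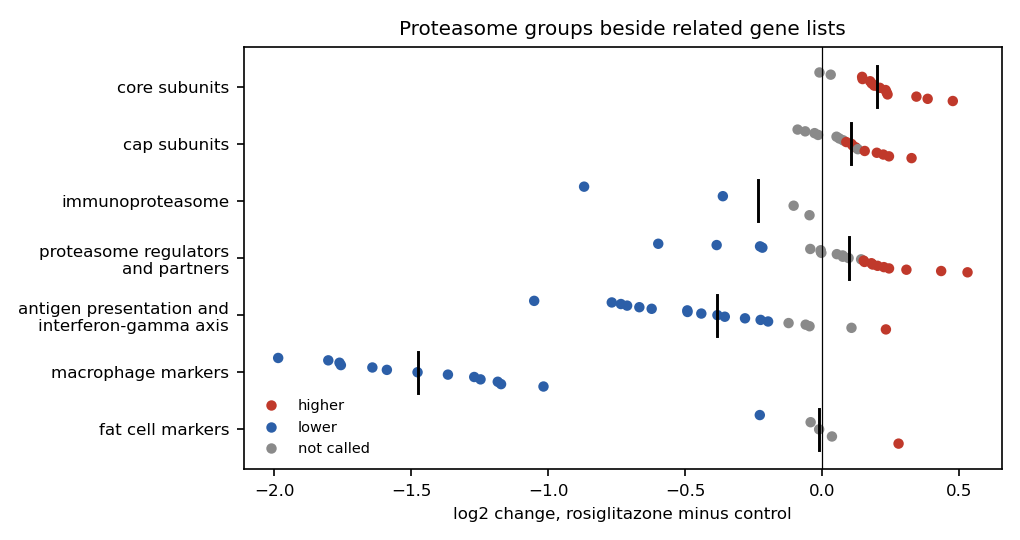
Log2 change (x axis, rosiglitazone minus control) of core, cap and immunoproteasome genes beside 4 related lists (rows); points are genes, red called higher, blue called lower and grey not called, and black bars are medians. The macrophage markers lie at −1.02 or below, and the antigen presentation list is centred at −0.38.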

How the data were processed

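The authors' deposited table holds probe set intensity on a linear scale for 45101 probe sets on 6 arrays, with the scanner software and summary method not given in the sources used here. Arrays were grouped by title, since the treatment protocol of the labels names rosiglitazone for the controls too. Intensities under 16 were set to 16 and log2 was taken. Control probe sets (64) were removed, as was the dimmest 40% of the remainder by mean log2 value (below an intensity of 26.7). Genes were named through the platform's annotation table, with 0 of 50 member symbols renamed by the reference, and each was represented by its brightest single-symbol probe set. The comparison used lmFit and eBayes with a variance trend (limma 3.58.1, R 4.3.3; two-sided), with Benjamini-Hochberg adjustment over all 12947 genes and a threshold of 0.05. Depth has no counterpart on arrays, whose number (3 per group) limits the precision. The fit was tested on simulated data.

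The members, roles, gene lists, motifs and rule for named genes were chosen with earlier results of these data known. Named in detail were the immunoproteasome genes with their partners, the activators, the assembly factors, up to 4 called genes per role or list with the largest change, and the smallest change per role. Tap1, Tap2, Ifngr2, Ifi47, Irgm1, Nlrc5, Irf9, Akirin2, Ubqln1, Usp14, Uchl5 and Sem1 were named after their values were seen. Of 6 planned pairs, those with Psme2 could not be made. Alternatives covered scaling (with centring on all probe sets added after seeing the data), floor, filter, choice of probe set, variance model, the replicate block and each array left out.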

Additional observations from a re-analysis of the deposited data

Results flagged for a closer look

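The only probe set that names Psme2, shared with its near-identical copy Psme2b, entered no comparison because it has 2 symbols. Its signal was above that of the control cells on every array, at 4719.23, 4819.57 and 4797.68 with rosiglitazone, against 3626.83, 3580.09 and 3658.56 in control cells, a ratio of means of 1.32. No test was run on it, and the part of each copy in this signal was not tested. Its direction is opposite to that of Psmb9 and Psmb10.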

How the results depend on the processing

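Of 30 called genes, 21 kept their call and direction under all 17 alternatives, 8 lost the call under at least 1, and Psma3 reversed with the mean of its probe sets (−0.62). Of 18 uncalled genes 13 were called under at least 1 alternative. The number of genes that fell was 2 after median centring and 6 with the mean of probe sets, against 4 as deposited. Of all genes 25.3%, 33% and 35.7% fell in these settings. The medians of core, cap and assembly were 0.32, 0.23 and 0.26 after median centring, and that of the immunoproteasome was −0.11. Centring on all probe sets, chosen after seeing the data, gave 0.23 for the core and 0.14 for the cap, and reversed Psmb1 (0.022), Psmc2 (0.0046) and Psmc6 (0.017). Quantile normalization gave medians of 0.14 for the cap, 0.24 for assembly and −0.13 for the immunoproteasome. The cap had 0.089 with the mean of probe sets, and 0.093 to 0.12 with each array left out. Some changes near 0 reversed. With median centring these were Psmb1 (0.11), Psmb8 (0.019), Psmc2 (0.10), Psmc3 (0.061), Psmc5 (0.033), Psmc6 (0.11), Psmd5 (0.040), Psme1 (0.077) and Psmg4 (0.047). With quantile normalization they were Psmb4 (−0.0029), Psmb8 (0.013), Psme1 (0.015) and Psmg4 (0.029). Psmb4 also reversed with the mean of probe sets (−0.0024). With each array left out in turn, Psmb1 lay between −0.024 and 0.0025, Psmc6 between −0.040 and 0.0034, Psmc3ip between −0.0070 and 0.099, and Psme3ip1 between −0.0064 and 0.011. Leaving out an array gave 25 to 28 rises and 3 to 5 falls, where 21% to 22.8% of all genes rose and 32.7% to 34.7% fell. The 4 pair differences kept their direction in each alternative run, but quantile normalization changed their size. After it Psmb8 had 0.013 and Psmb5 0.36, a smaller difference than as deposited. Psme1 had 0.015 and Psme3 0.74, a slightly larger one. Same-numbered arrays of the groups did not deviate together (correlations of −0.02, −0.02 and 0.06), so replicate numbers were not treated as pairs. With the replicate block 26 genes rose and 4 fell, as without it, where 23.5% and 35.8% of all genes did so. The cause of these shifts was not tested, beyond the shift that each centring itself adds. Signal over background was not estimated, and 3 arrays per group limit the precision.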
